A study of Mus musculus with 20 samples.

Results

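The uterine transcript profiles of mice given 2 bisphenol-type compounds, HPTE and bisphenol A (BPA), were compared 2 h after injection. The samples were chosen by their titles and are 6 of the 20 arrays of the series, 3 of uteri exposed to HPTE and 3 of uteri exposed to BPA. All animals were C57bl6/J females, adults of at least 10 weeks, whose ovaries had been removed and which had rested for 10 to 14 days, so that their own estrogen was absent from every group, controls included. BPA or HPTE was given under the skin as 1 dose of 750 µg in sesame oil, and uteri were collected 2 h later. Each array held the Cy3-labelled RNA of 1 whole uterus. The other arrays carried uteri taken 24 h after the same doses of BPA and HPTE (3 of each), 2 h or 24 h after 250 ng of estradiol (E2; 3 and 2), and vehicle uteri. The 3 vehicle animals received 100 µl of sesame oil and their samples are titled 24 h, so that a change from vehicle at 2 h also spans a difference in collection time.

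The estrogen-deprived uterus is a classical target of estrogen. Estrogen receptor α (ERα) in its epithelium, stroma and muscle binds the hormone and, within the first hours, raises transcripts of immediate early transcription factors, growth factors and signalling regulators, while it lowers another set of transcripts. Epithelial cells enter the cell cycle about a day later. Fluid uptake and the entry of leukocytes into the tissue belong to the same early phase. The comparison asked where a pair of estrogenic chemicals that share this receptor gave different levels of individual transcripts at this early time.

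BPA is a building block of polycarbonate plastics, and HPTE is the estrogenic metabolite of the pesticide methoxychlor. Both molecules carry a pair of p-hydroxyphenyl rings on 1 central carbon atom. In BPA this carbon bears methyl groups only, and in HPTE it bears a hydrogen and a trichloromethyl group. Doses were equal by mass and not by number of molecules, since HPTE is the heavier molecule. This is 1 pair of compounds at 1 dose and 1 early time, and p-values were adjusted over all probes of that pair.

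The 6 arrays were of similar brightness. The 75th percentile of intensity lay between 1780.67 and 1983.06, the share of probes well above background ran from 76.2% to 79.7%, and no probe was saturated. A probe was tested if all 3 BPA arrays or all 3 HPTE arrays measured it well above background, which 31262 of 41174 did. Values below are normalised intensities, in which the 75th percentile of each array is 1000, and are given for replicates 1, 2 and 3 in that order. The number of arrays, 3 a group, limits their precision. Each of 3 slides held 1 BPA and 1 HPTE array, with the HPTE array in the later position on every slide. Markers of uterine epithelium (Krt8, Epcam, Foxa2), stroma (Hoxa10, Hand2), smooth muscle (Acta2, Myh11) and endothelium (Pecam1, Kdr) were above background in both groups, and Prss28 was the only marker of these 4 lists that was at background on all 6 arrays. Replicates of BPA spread more than those of HPTE, with a median probe SD of 0.17 against 0.13 (log2). On the first principal component, which held 48.1% of the variance of the 6 arrays, BPA replicates 1 and 2 stood at 71.1 and 41.2 and the HPTE arrays between -52.5 and -19.5. BPA replicate 3 stood at -10.8, nearer to the HPTE arrays than to the other two of its group.

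Most of the transcripts measured differed little between the compounds. A difference at an adjusted p under 0.05 (limma, Benjamini-Hochberg adjustment over all probes tested) was called for 139 probes, or 0.445% of those tested, against 5112 at an unadjusted p under 0.05. Of these, 78 probes (0.25%; 59 named genes) were higher under HPTE and 61 (0.195%; 38 named genes) were lower. The higher ones were mostly small differences, with a median of 0.62 on the log2 scale and 9 of 78 past 2-fold. The lower ones were larger, with a median size of 1.18 and 40 of 61 past 2-fold. For 26332 probes (84.2%) the 95% interval of the difference lay within 2-fold either way, while 1116 (3.57%) had a fitted difference of 2-fold or more. Against vehicle, 15434 probes (49.4%) were called for BPA and 14966 (47.9%) for HPTE. Those 2 comparisons share the vehicle arrays. They also span a difference in position on the slide. The vehicle arrays were all at position 1, BPA replicates 1, 2 and 3 at 2, 2 and 3, and the HPTE replicates at 3, 4 and 4. This limit holds for every change from vehicle given below.

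**Figure D1:**
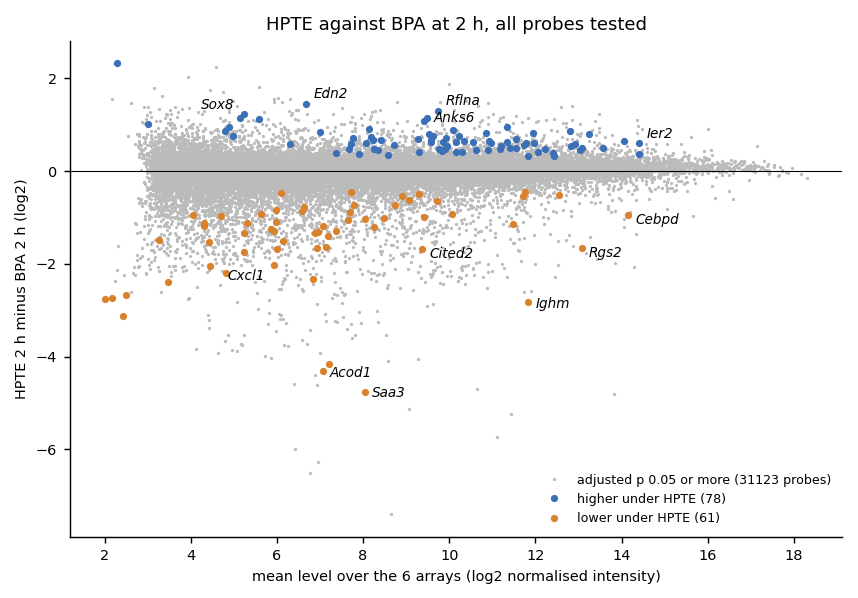
Difference between HPTE and BPA at 2 h (log2, HPTE minus BPA, vertical axis) against mean level over the 6 arrays (log2 of normalised intensity, horizontal axis) for all 31262 probes tested, 1 point a probe. The 139 called probes are coloured, and those lower under HPTE reach farther from 0, to -4.76, than those higher, which reach 2.33.

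The number of calls rested on the spread borrowed from the other arrays and on single arrays. Fitted on the 6 compared arrays alone, limma called 0 probes, with 3090 at an unadjusted p under 0.05. Without one array at a time the count was 40 without BPA replicate 1, 633 without BPA replicate 2 and 1198 without BPA replicate 3, and it was 14 without HPTE replicate 1, 14 without HPTE replicate 2 and 141 without HPTE replicate 3. With the slide as a block the split turned to 32 higher and 64 lower, with quantile normalization it was 67 and 25, and with normexp background correction before it 93 and 40. Scaling to the spike-in probes, which moved the median of all probes to 0.20, left 0 calls, with 1727 at an unadjusted p under 0.05. With the position on the slide as a block, limma called 1 probe, which was none of the 139, and 2519 had an unadjusted p under 0.05. Position and compound could be separated only in part, since HPTE had the later position on each slide. In all 6 fits that left out 1 array 13 of the 139 probes were called, 11 higher and 2 lower. Deviations from the group mean of the BPA and HPTE arrays that shared a slide correlated at 0.16, 0.13 and 0.30 over probes, and the slide block is given below where it ended a call. Differences below are as fitted, beside a median of 0.03 over all probes.

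Genes of the acute phase and of inflammatory signalling led the side lower under HPTE. Saa3 and Acod1 had the largest named differences, Saa3 and Cxcl1 were members of the inflammation list, and Cebpd and Bcl3 act in the same pathways. For Cxcl1, Bcl3 and the chemokine receptor gene Cxcr4 the 250 bases before the transcription start hold the short motif GGGNNTTNC. It is a loose form of the binding site of NF-κB, a well known regulator of inflammatory genes. These promoters are picked examples that hold a match, and those of Saa3, Acod1 and Cebpd are not shown. Cxcr4 was, unlike the inflammatory genes, lower than vehicle under both compounds. Capitals mark each match on either strand, the sequences come from RefSeq on GRCm38.p6 and each is written 5′ to 3′ on the strand of its gene.
Cxcl1 (chr5:90890995-90891244, + strand): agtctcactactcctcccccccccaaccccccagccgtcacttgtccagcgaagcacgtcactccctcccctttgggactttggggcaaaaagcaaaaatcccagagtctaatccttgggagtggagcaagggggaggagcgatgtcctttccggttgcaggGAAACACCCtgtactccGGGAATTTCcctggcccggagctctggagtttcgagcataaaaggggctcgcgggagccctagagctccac
Bcl3 (chr7:19822756-19823005, - strand): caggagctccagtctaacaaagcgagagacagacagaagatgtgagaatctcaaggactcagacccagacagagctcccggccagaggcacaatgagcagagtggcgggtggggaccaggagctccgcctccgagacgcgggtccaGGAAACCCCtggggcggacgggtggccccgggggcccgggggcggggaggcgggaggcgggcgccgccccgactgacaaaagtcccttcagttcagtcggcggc
Cxcr4 (chr1:128592300-128592549, - strand): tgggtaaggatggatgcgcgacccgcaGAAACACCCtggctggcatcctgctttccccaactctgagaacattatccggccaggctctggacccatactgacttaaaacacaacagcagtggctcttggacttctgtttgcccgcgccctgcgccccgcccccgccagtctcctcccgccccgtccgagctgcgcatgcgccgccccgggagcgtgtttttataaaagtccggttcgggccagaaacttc
The matches begin 88 and 71 bases before the start of Cxcl1, 104 before that of Bcl3 and 223 before that of Cxcr4. The motif stood in 10 of 37 promoters (27%) of genes called lower, in 14 of 62 (22.6%) of those called higher and in 4271 of all 32851 promoters of this length (13%). In the inflammation and interferon list it stood in 6 of 22 promoters (27.3%). TGANTCA, the motif of the AP-1 transcription factors, stood in 7 of those 22 (31.8%) and in 6.75% of all promoters. It stood in 1 of the 37 called lower (2.7%) and in 6 of the 62 called higher (9.68%). A match is a description of the letters and no measure of binding.

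Saa3 encodes serum amyloid A3, an acute phase protein made in inflamed tissue, and its probe lies at chr7:42888862-42888921 (mm7, the build of the array design). It measured 1435, 3256 and 552 under BPA, 67.9, 24.97 and 76.4 under HPTE and 89.3, 152 and 269 in vehicle uteri. Every BPA array was above, and every HPTE array below, all vehicle arrays. The difference of -4.76 ± 0.91 (log2, HPTE minus BPA, ± SE), 27.1-fold lower under HPTE, had an adjusted p of 0.0384. Acod1 encodes the enzyme that makes itaconate in activated macrophages. Its probe at chr14:97488905-97488965 measured 937, 791 and 284 under BPA and 51.5, 16.1 and 32.4 under HPTE, against 36.6, 53.2 and 63.9 in vehicle. The BPA arrays stood apart from the other two groups, and the HPTE arrays overlapped the vehicle arrays. Its difference was -4.31 ± 0.79 (adjusted p = 0.0311), and a second probe was also called at -4.16.

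Cxcl1, a chemokine that draws neutrophils, measured 113, 149.5 and 112 under BPA, 26.4, 30.6 and 34.6 under HPTE and 23.4, 29.9 and 29.5 in vehicle uteri. HPTE and vehicle overlapped, with BPA above both, a difference of -2.03 ± 0.36 (adjusted p = 0.029). Cebpd encodes a transcription factor of acute phase genes and gave 29430.0, 22500.2 and 24412 under BPA, 12256, 13929 and 13591 under HPTE and 11300.4, 8798 and 9684 in vehicle. Both treated groups were above vehicle and BPA was the higher, by 0.93 on the log2 scale (difference -0.93 ± 0.14, adjusted p = 0.0101). Bcl3, a cofactor of NF-κB named after its values were seen, measured 5111, 3286 and 4522 under BPA and 1830.5, 1741 and 2205 under HPTE, against 1928, 1663 and 1752 in vehicle. Its difference was -1.14 ± 0.22 (adjusted p = 0.0398), again with HPTE among the vehicle values. Creb3l3, which encodes a membrane-bound transcription factor known from the hepatic acute phase, measured 113, 152 and 88.8 under BPA and 27.00, 29.1 and 59.98 under HPTE (-1.67 ± 0.33, adjusted p = 0.0435).

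These differences had the same sign on all 3 slides, as they must where all HPTE arrays lie below all BPA arrays. On slides 4, 1 and 3 the HPTE array differed from the BPA array beside it by -5.58, -4.47 and -4.23 for Saa3, by -2.50, -1.87 and -1.71 for Cxcl1 and by -0.88, -0.81 and -1.11 for Cebpd (log2). The calls depended on single arrays. Saa3 and Acod1 were no longer called without BPA replicate 1 or any single HPTE array, with differences of -5.06 to -4.25 and -4.70 to -3.86 in those fits and adjusted p up to 0.185 and 0.163. Cxcl1 and Bcl3 were lost without BPA replicate 1, HPTE replicate 1 or HPTE replicate 2 (-2.09 to -1.93 and -1.11 to -1.01), and Cebpd without HPTE replicate 1 or 2 (-0.97 to -0.88, adjusted p up to 0.0753). Creb3l3 was lost without BPA replicate 1, BPA replicate 2, HPTE replicate 1 or HPTE replicate 2 (-1.68 to -1.46). With the slide as a block the adjusted p was 0.00882 for Saa3, 0.0212 for Cebpd and, no longer called, 0.0602 for Cxcl1, 0.0752 for Bcl3 and 0.0887 for Creb3l3.

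**Figure D2:**
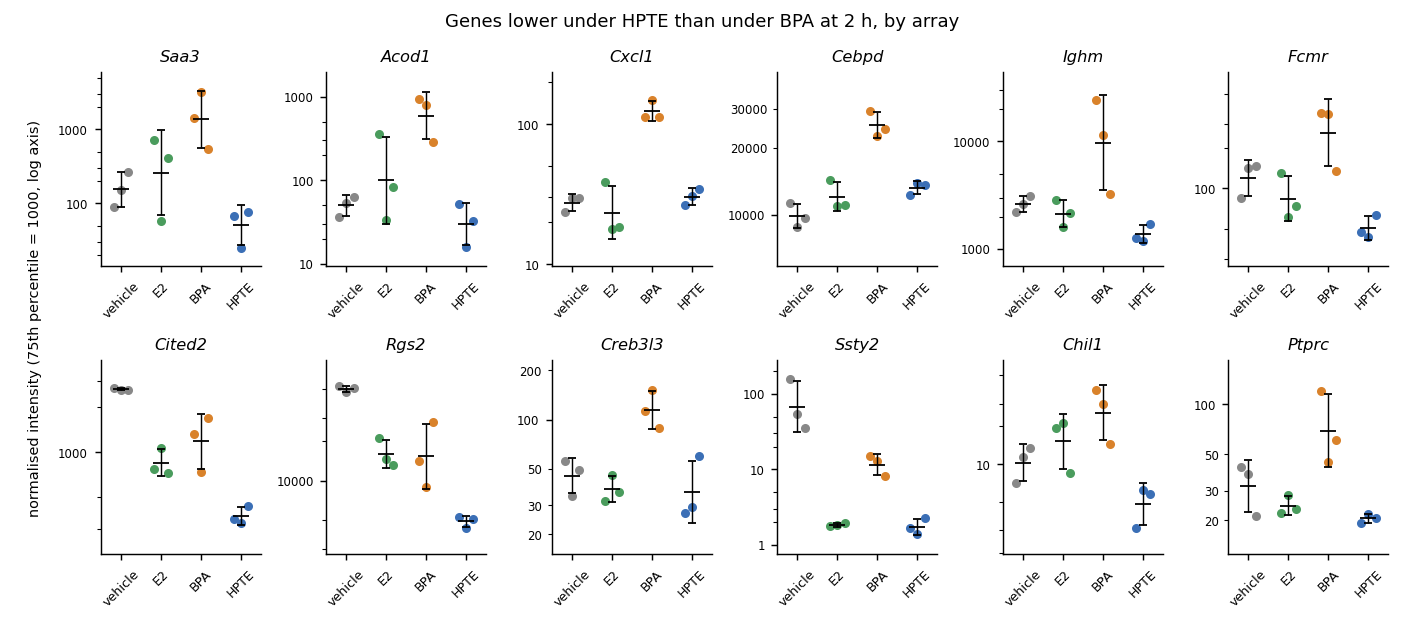
Normalised intensity (log axis, 75th percentile of each array = 1000) of 12 genes called lower under HPTE in each vehicle, E2 2 h, BPA 2 h and HPTE 2 h array. Points are single uteri and bars the mean ± SD of the log2 values. The 3 HPTE points lie below the 3 BPA points in every panel, and for Acod1 and Cxcl1 they overlap the vehicle points.

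The inflammation and interferon list, 24 genes tested, had 21 lower and 3 higher under HPTE, with 2 called lower and 0 called higher. Its median difference was -0.42 against 0.03 over all probes tested, and in 11 genes the groups did not overlap with HPTE lower. Over all probes, groups of 3 and 3 did not overlap, in either direction, for 18.9%. The called members were Saa3, the farthest from 0, and Cxcl1. Several uncalled cytokines and chemokines were also well below 0. Cxcl10 was at -2.003 ± 0.43 (adjusted p = 0.0545), Il1b at -1.94 ± 0.68 (0.171), Tnf at -1.39 ± 0.39 (0.113), Ccl2 at -1.31 ± 0.38 (0.121) and Il6 at -1.24 ± 0.32 (0.0989), none of them called. The interferon-induced genes of the same list were near 0, with -0.10 ± 0.29 for Ifit1, -0.03 ± 0.27 for Isg15 and -0.07 ± 0.24 for Oasl2, and the intervals of these 3 lay within 2-fold. Of the feedback inhibitors, Socs3 was at 0.58 ± 0.29 and Nfkbia at 0.25 ± 0.19, with HPTE the higher, and Tnfaip3 at -1.003 ± 0.29, with HPTE the lower, none called.

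Transcripts of leukocytes formed the next group lower under HPTE. Ighm, the heavy chain of immunoglobulin M, measured 24458, 11493 and 3251 under BPA, 1255, 1193 and 1710.3 under HPTE and 2223, 2613 and 3077 in vehicle uteri. BPA was the highest group, though its 3 arrays themselves spanned a wide range, and the difference was -2.83 ± 0.57 (adjusted p = 0.0436). Its other probes gave between -5.24 and 0.07 and were not called, so the probes of this gene disagreed. Fcmr, the Fc receptor for immunoglobulin M on B cells, measured 361, 355 and 134 under BPA and 47.6, 44.1 and 64.2 under HPTE, against 84.4, 141 and 146 in vehicle (-2.33 ± 0.47, adjusted p = 0.0442). HPTE lay below both other groups, and BPA replicate 3 lay within the vehicle range.

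Ptprc encodes CD45, the surface phosphatase of all leukocytes. It gave 120.4, 44.9 and 60.7 under BPA and 19.3, 21.8 and 20.8 under HPTE, a difference of -1.75 ± 0.36 (adjusted p = 0.0499), and its 3 other probes ran the same way uncalled, between -1.55 and -1.19. Apbb1ip, an adaptor of integrin activation in leukocytes, measured 67.98, 20.8 and 34.5 under BPA and 12.3, 13.3 and 12.6 under HPTE (-1.52 ± 0.30, adjusted p = 0.0435). Vehicle gave 68.2, 57.6 and 45.2, so HPTE stood below vehicle while BPA overlapped it. Chil1, a chitinase-like protein secreted by macrophages and neutrophils, measured 37.99, 29.5 and 14.5 under BPA, and no HPTE array had it well above background. Its bound was 3.84-fold lower under HPTE. The bound compares the BPA mean with the dimmest signal of any probe that counts as above background, or with its own signal where higher. Chil1 passed the filter only through its BPA arrays, so its call (limma, adjusted p = 0.0293) is no support by itself. With normexp background correction and quantile normalization the difference was -0.46 (limma, adjusted p = 0.101). None of these 5 genes was called in every fit that left out 1 array. Each was lost without BPA replicate 1, HPTE replicate 1 or HPTE replicate 2, all but Chil1 also without HPTE replicate 3, and Fcmr also without BPA replicate 2. In those fits the differences were -2.99 to -2.16 for Ighm, -2.49 to -2.09 for Fcmr, -1.79 to -1.34 for Ptprc, -1.55 to -1.07 for Apbb1ip and -2.58 to -2.08 for Chil1. With the slide as a block Ptprc (adjusted p = 0.0692) and Apbb1ip (0.0546) were not called.

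Markers of several blood-derived cells lay lower under HPTE beside these genes, with no marker called. All 13 lymphocyte markers tested were lower under HPTE, 8 of them without overlap of the groups, with a median difference of -1.06. By limma 0 of the 13 were called and 9 had an unadjusted p under 0.05. Over all 31262 probes tested, 2617 did not overlap with HPTE the lower, and 5112 had an unadjusted p under 0.05 in either direction. The summed intensity of the 13 was 28172, 40242 and 7062 under BPA, 4762, 5558 and 13983 under HPTE and between 5433 and 8348 in vehicle, so BPA replicates 1 and 2 stood out and HPTE replicate 3 exceeded BPA replicate 3. Of the macrophage and neutrophil markers, 10 of 11 were lower under HPTE (median -0.86, 7 without overlap, 0 called by limma and 5 at an unadjusted p under 0.05), and their sum was 114197 to 202850 under BPA, 73143 to 94159 under HPTE and 89380 to 104644 in vehicle. No marker of either list was at background on all 6 arrays. The macrophage receptor genes Csf1r and Adgre1 were at -1.28 ± 0.28 (adjusted p = 0.0581) and -2.28 ± 0.72 (0.14). All 4 erythroid markers tested were also lower, with a median of -0.95, 0 called by limma and 1 at an unadjusted p under 0.05. The 9 mast cell and eosinophil markers went both ways, with 4 higher and 5 lower under HPTE, a median of -0.26, and by limma 0 called and 0 at an unadjusted p under 0.05. In RNA of a whole uterus, fewer cells of a type and less RNA per cell cannot be told apart. The part of these cells in the inflammatory and leukocyte differences was not tested.

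Ssty2, a gene of the Y chromosome expressed in spermatids, was among the largest named differences although all animals were female. It measured 14.95, 12.7 and 8.11 under BPA, had no HPTE or E2 2 h array well above background, and measured 160.1, 54.6 and 35.1 in vehicle uteri. By the bound used for Chil1 it was 1.75-fold lower under HPTE than under BPA. Ssty2 passed the filter only through its BPA arrays, so its call (limma, adjusted p = 0.0309) is no support by itself. The call was lost without BPA replicate 1, HPTE replicate 1 or HPTE replicate 2, and with the slide as a block (adjusted p = 0.0621). With normexp background correction and quantile normalization the difference was -0.25 (limma, adjusted p = 0.576). All 17 markers of maturing sperm cells tested were lower under HPTE, 13 without overlap, with a median of -1.46, 0 called by limma and 14 at an unadjusted p under 0.05. Over all 31262 probes tested, 2617 did not overlap with HPTE the lower, and 5112 had an unadjusted p under 0.05 in either direction. The summed intensity of the sperm cell markers was 9043 to 17493 under BPA, 3511 to 8388 under HPTE, 40687 to 136741 in vehicle and 1493 to 2872 under E2 at 2 h. The protamine genes Prm1 and Prm2 were at -1.46 ± 0.55 and -1.75 ± 0.58, uncalled. Uterine cell markers did not follow this pattern, with medians of 0.06 for epithelium, -0.06 for stroma, 0.12 for smooth muscle and 0.09 for endothelium. By limma 0 of these markers were called, and at an unadjusted p under 0.05 there were 3, 0, 2 and 0. These medians hide a difference within the BPA group. The summed epithelium intensity was 56495 on BPA replicate 1, 84778 and 88951 on BPA replicates 2 and 3 and 83186 to 89024 under HPTE. On slide 3, which held BPA replicate 1, the medians of the lists were 0.56, 0.19, 0.39 and 0.18 in the same order. On slides 1 and 4 the epithelium median was -0.07 and -0.06. The source of the sperm cell transcripts was not tested. Markers of adipocytes, mast cells and eosinophils, acinar pancreas, oviduct, ovary, skeletal muscle and liver had medians of 0.49, -0.26, 0.0043, -0.11, -0.07, 0.25 and 0.40, with 0 called by limma and at most 1 in a list at an unadjusted p under 0.05.

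Another group of genes was lowered from vehicle by both compounds and stood lower under HPTE. Cited2, which binds the coactivators CBP and p300 and limits hypoxia signalling, measured 2698, 2639 and 2637 in vehicle, 1320.0, 739 and 1698 under BPA and 351, 329.9 and 434 under HPTE. The 3 groups did not overlap, and all 4 probes of the gene were called, at -1.68 ± 0.25 (adjusted p = 0.012) for the largest and -1.403 for the smallest. Rgs2, an inhibitor of G protein signalling abundant in smooth muscle, measured 52612, 47832 and 51552 in vehicle, 14114, 8975 and 28299 under BPA and 5242, 4355 and 5071 under HPTE. Here too the groups were fully separate (-1.65 ± 0.28, adjusted p = 0.0244), with BPA replicate 3 nearest to vehicle. A second Rgs2 probe gave -1.68 without a call, and its relative Rgs4, named after its values were seen, was called at -1.49 ± 0.29 (adjusted p = 0.0406, lost without HPTE replicate 1 or 2 and, at 0.0839, with the slide as a block).

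Cxcr4, the receptor of the chemokine CXCL12, was named after its values were seen. It measured 230.3, 262 and 287 in vehicle, 124, 132 and 101 under BPA and 40.1, 37.3 and 48.1 under HPTE, with E2 at 2 h at 132, 92.9 and 92.6. Both xenoestrogen groups were below vehicle and the HPTE arrays were the lowest. The difference of -1.50 ± 0.17 (adjusted p = 0.00239) was called in all 6 fits that left out 1 array (-1.62 to -1.42), and the second probe of the gene was called at -1.33. The other probe of the lower side called in all 6 was a second probe of Cited2, at -1.63 (adjusted p = 0.00467). Rgs2 and the first probe of Cited2 were lost without BPA replicate 1, HPTE replicate 1 or HPTE replicate 2, at -1.71 to -1.57 and -1.64 to -1.599.

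The adhesion genes Vcam1 and Itga4, a ligand and integrin pair, were called at -0.74 ± 0.13 (0.0309) and, for 2 of 3 probes of Itga4, at -1.25 ± 0.23 (0.0347) and -1.03. The innate immune genes Sting1 at -0.44 ± 0.07 (0.0218) and Casp4 at -0.51 ± 0.08 (0.0197) had small differences with narrow errors. Relative to vehicle these genes did not behave alike. Vcam1 and Itga4 were called lower under HPTE, at -0.91 ± 0.13 and -0.98 ± 0.23, and were not called under BPA, at -0.18 ± 0.13 and 0.27 ± 0.23. Sting1 was called higher under BPA, at 0.51 ± 0.07, and not under HPTE, at 0.07 ± 0.07, and Casp4 was called lower under both. These 4 were named after their values were seen, and all were lost without BPA replicate 1, HPTE replicate 1 or HPTE replicate 2, with differences in those fits of -0.73 to -0.69 for Vcam1 and -1.29 to -1.03 for Itga4, the latter also without HPTE replicate 3. With the slide as a block Vcam1 (adjusted p = 0.0626) and both probes of Itga4 (0.0617 for the first) were not called.

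On the side higher under HPTE, endothelin 2 (Edn2), a small peptide that contracts smooth muscle, had the largest named difference. Its probe lies at chr4:119607055-119607114 (mm7) and measured 47.98, 74.4 and 65.97 under BPA, 202, 136 and 177 under HPTE and 158, 173 and 176 in vehicle uteri. BPA lay below vehicle on every array, whereas HPTE overlapped vehicle, so that the difference of 1.46 ± 0.16 (2.74-fold, adjusted p = 0.00239) came with a change from vehicle of -1.45 ± 0.16 (adjusted p = 4.4e-06) for BPA and 0.00 ± 0.16 (0.992) for HPTE. The E2 arrays at 2 h gave 108, 109 and 128, between the compounds. Edn2 was called in all 6 fits that left out 1 array (1.27 to 1.62) and with the slide as a block (adjusted p = 0.0054). Its promoter is shown as that of the named gene with the largest difference on this side, with its 1 match to the same motif in capitals, which begins 234 bases before the start.
Edn2 (chr4:120160956-120161205, + strand, GRCm38.p6, RefSeq): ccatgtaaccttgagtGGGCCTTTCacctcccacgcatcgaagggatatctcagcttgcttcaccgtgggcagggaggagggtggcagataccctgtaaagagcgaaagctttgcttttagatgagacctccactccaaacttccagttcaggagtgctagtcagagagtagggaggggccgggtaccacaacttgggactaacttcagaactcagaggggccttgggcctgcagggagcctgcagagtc

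A second group was raised from vehicle by both compounds, and more by HPTE. Anks6, a protein of primary cilia, measured 362, 350.4 and 328 in vehicle, 487, 557 and 407 under BPA and 1162, 1081 and 934 under HPTE (1.14 ± 0.13, adjusted p = 0.00239). Pdxp, the phosphatase of pyridoxal phosphate, measured 350.3, 334 and 355 in vehicle, 746, 960.4 and 707 under BPA and 1608, 1442 and 1378 under HPTE (0.89 ± 0.12, adjusted p = 0.00467). Rflna, a filamin-binding protein, measured 112, 88.8 and 98.5 in vehicle, 637, 821 and 313 under BPA and 1579, 1233 and 1262 under HPTE. The 3 groups were separate for each of these genes. The Rflna difference of 1.30 ± 0.24 (adjusted p = 0.033) ranged over 0.90 to 1.596 without single arrays, and its call was lost without BPA replicate 1 or any HPTE array, and with the slide as a block (adjusted p = 0.0528). The immediate early gene Ier2 rose from 3335, 3648 and 3312 in vehicle to 19751, 19813 and 14026 under BPA and 28985, 26208 and 25143 under HPTE (0.60 ± 0.12, adjusted p = 0.048), a call lost without the same 4 arrays and with the slide as a block (0.0562).

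Another set was called against vehicle under HPTE and not under BPA. Ttl, tubulin tyrosine ligase, measured 24.6, 22.6 and 26.8 under BPA and 22.5, 32.04 and 30.3 in vehicle, which overlapped, and 53.2, 74.5 and 49.4 under HPTE (1.24 ± 0.17, adjusted p = 0.00467). Sox8, a transcription factor gene, measured 22.8, 17.6 and 34.04 under BPA, 29.2, 34.7 and 29.2 in vehicle and 50.4, 53.4 and 54.4 under HPTE (1.14 ± 0.19, adjusted p = 0.0234). In both genes the HPTE arrays were above every BPA and vehicle array. Prdm11, a gene of the PR-domain family, measured 478, 544 and 401 under BPA and 991, 1181 and 832 under HPTE, with vehicle at 386, 409.6 and 424 (1.07 ± 0.12, adjusted p = 0.00239). Others of this kind were Ahdc1 at 0.95 ± 0.16 (0.0218), the E3 ligase gene Lnx1 at 0.96 ± 0.18 (0.0334), the kinase anchoring gene Akap5 at 0.84 ± 0.17 (0.0435) and envoplakin, Evpl, a protein of the cornified envelope, at 0.86 ± 0.17 (0.0394), with its second probe also called at 0.72. Of the 12 named higher genes, Edn2, Anks6, Pdxp, Ttl and Prdm11 were called in all 6 fits without 1 array. Sox8, Ahdc1, Akap5, Lnx1 and Evpl were lost without BPA replicate 1, HPTE replicate 1 or HPTE replicate 2, the last pair also without HPTE replicate 3, with differences in those fits between 0.78 for Akap5 and 1.17 for Sox8. With the slide as a block Sox8 (adjusted p = 0.0584), Lnx1 (0.0621) and Akap5 (0.0818) were not called. Second probes of Ttl, Sox8 and Ahdc1 gave 0.64, 0.86 and 0.75, and 3 of Lnx1 0.22 to 0.68, none of them called.

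Prl2c5, a prolactin-family gene, was not well above background on any BPA array and measured 11.4, 11.6 and 11.4 under HPTE. By the bound used for Chil1 it was 1.62-fold higher. It passed the filter only through its HPTE arrays, so its call (limma, adjusted p = 0.0435) is no support by itself. The call was lost without BPA replicate 1 or any HPTE array. With normexp background correction and quantile normalization the difference was 0.16 (limma, adjusted p = 0.176). Among the smaller calls, named after their values were seen, several had narrow errors. Trim47, a ubiquitin ligase gene, measured 7175, 7523 and 7362 under BPA, 13364, 13472 and 11678 under HPTE and 10380.1, 8387 and 10071 in vehicle, with BPA below and HPTE above all vehicle arrays (0.80 ± 0.09, adjusted p = 0.00239). Heg1, a transmembrane protein of endothelium, at 0.73 ± 0.09 (0.00381), the potassium channel gene Kcnk1 at 0.61 ± 0.08 (0.00398) and the pericyte proteoglycan gene Cspg4 at 0.57 ± 0.08 (0.00467) were, like Trim47, called in all 6 fits without 1 array. Pthlh, the parathyroid hormone-like peptide that relaxes uterine muscle, was called with both of its probes, at 0.76 ± 0.14 (0.0347) for the first, though not without BPA replicate 1 or any HPTE array, and measured 769, 1225 and 833 under BPA, 1697, 1442 and 1554 under HPTE and 487, 524 and 457 in vehicle.

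**Figure D3:**
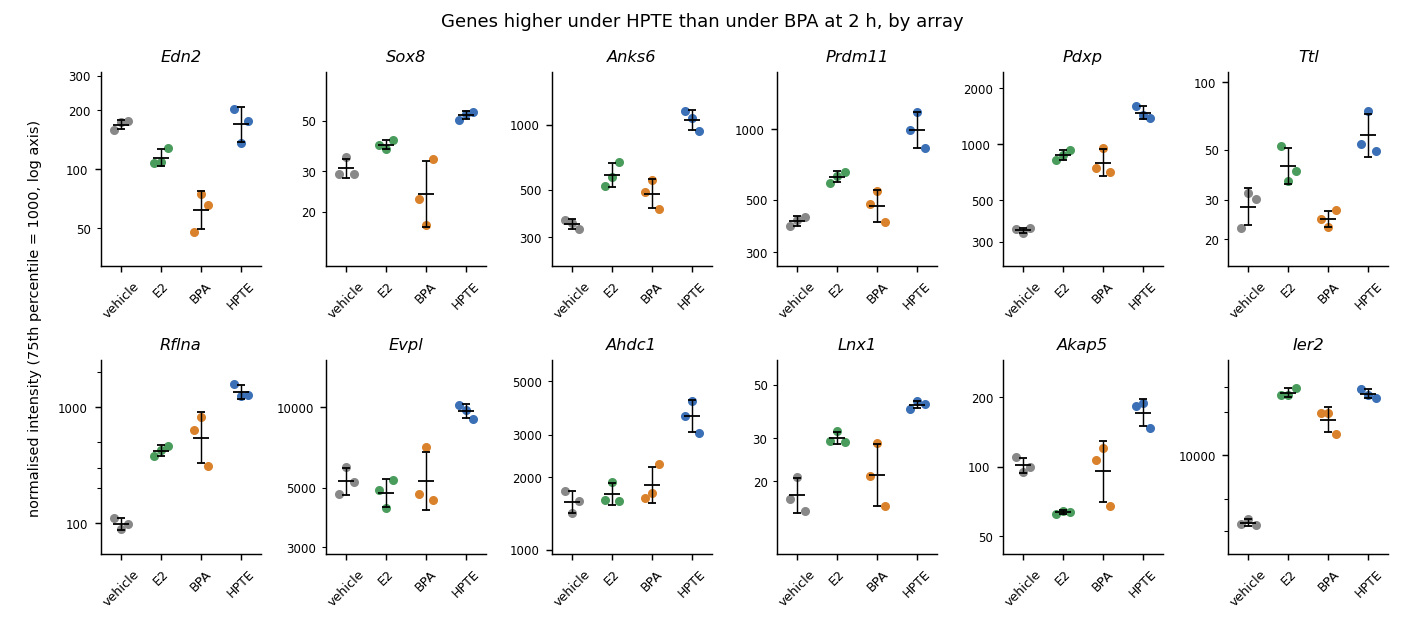
Normalised intensity (log axis, 75th percentile of each array = 1000) of 12 genes called higher under HPTE in each vehicle, E2 2 h, BPA 2 h and HPTE 2 h array. Points are single uteri and bars the mean ± SD of the log2 values. For Edn2 the BPA points lie below all vehicle points, and for Anks6 and Pdxp the groups rise from vehicle through BPA to HPTE.

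Over the gene lists of the estrogen response, few members were called. Of 24 immediate early genes tested, 16 were higher and 8 lower under HPTE, with a median of 0.10, 1 called (Ier2) and 22 with intervals within 2-fold. The transcription factor genes Fos, Egr1 and Myc were at 0.39 ± 0.28, 0.12 ± 0.09 and -0.62 ± 0.22, uncalled. Of 23 growth factors and ligands limma called 0, with 9 at an unadjusted p under 0.05 and a median of 0.06. Edn1, the better known endothelin, was at 0.41 ± 0.09 (adjusted p = 0.0581) and Gdf15, a ligand induced by stress, at 1.41 ± 0.42 (0.128), both without overlap of the groups. Igf1, the growth factor through which stroma drives epithelial growth, was at -0.39 ± 0.18 (0.293). Of 23 nuclear receptors and cofactors limma also called 0, with 6 at an unadjusted p under 0.05, and 20 had intervals within 2-fold. Esr1, the gene of ERα, was at 0.25 ± 0.19 with an interval of -0.16 to 0.66, the progesterone receptor gene Pgr at -0.20 ± 0.09 with an interval of -0.40 to -0.01, and Greb1, an estrogen target, at 0.28 ± 0.17.

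The 17 transcripts of the study's own PCR work at 2 h had a median of 0.31, with 12 higher and 5 lower under HPTE, 1 called (Sox8) and 12 with intervals within 2-fold. At an unadjusted p under 0.05 there were 7 of 17, against 5112 of the 31262 probes tested, and the 84.2% of all probes with intervals within 2-fold stood above the share in this set. Nr4a1, an orphan nuclear receptor gene, measured 3458, 2883 and 3284 in vehicle, 57664, 60020.5 and 62036 under BPA and 67604, 57288 and 64001 under HPTE, a difference of 0.07 ± 0.10 (interval -0.15 to 0.29). Ccn1, a matricellular growth factor, was at 0.09 ± 0.20 (-0.34 to 0.52), Mad2l1, a spindle checkpoint gene, at -0.04 ± 0.25 (-0.57 to 0.49) and Inhbb, a subunit of activin B, at 0.31 ± 0.28 (-0.29 to 0.91). Cdkn1a, the cell cycle inhibitor p21, had the largest uncalled value, 1.15 ± 0.32 (adjusted p = 0.108), and measured 2209, 2202 and 792 under BPA and 3277, 4038 and 3176 under HPTE. All 3 HPTE arrays exceeded the BPA arrays in Cdkn1a, and BPA replicate 3 was the lowest of the 6. The same array was the lowest of the 6 for Stat5a, Inhbb, Mad2l1, Ppp2r2c, Wnt4, Errfi1, Fos, Ccn1 and Gadd45g. The remaining members of the list were Stat5a at 0.46, Ppp2r2c at 0.47, Wnt4 at 0.39, Errfi1 at 0.59, Gadd45g at 0.53, Axin1 at -0.18, Per1 at -0.48, Gna12 at -0.07, Mvp at -0.30 and Tnxb at 0.08, none of them called.

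Lists of chemical and cellular stress also held few calls. Of 17 genes of xenobiotic metabolism limma called 0, with 4 at an unadjusted p under 0.05 and a median of 0.21. Tiparp and Cyp1b1, both targets of the aryl hydrocarbon receptor, were at 0.94 ± 0.38 and -1.09 ± 0.64, of opposite sign. The other stress lists had medians near 0, at -0.0046 for 19 genes of oxidative stress, -0.11 for 20 of the amino acid and endoplasmic reticulum stress response and 0.02 for 13 heat shock genes. By limma 0 members of these 3 lists were called, and 1, 3 and 2 had an unadjusted p under 0.05. Hmox1, which degrades haem, stood apart from its list at -1.27 ± 0.35 (adjusted p = 0.108). Intervals lay within 2-fold for 17 of 19, 17 of 20 and 13 of 13 of their genes. Of 18 glucocorticoid-induced genes 1 was called, Cebpd, with a median of 0.10. The 16 circadian clock genes and the 24 ribosome biogenesis genes had medians of 0.08 and -0.0087, with 0 called and 6 and 2 at an unadjusted p under 0.05.

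The 2 lists of later growth were of opposite sign at small size. Of 25 G2/M genes 23 were lower under HPTE with a median of -0.16, and limma called 0, with 1 at an unadjusted p under 0.05. Mki67 was at -0.29 ± 0.21 and Ccnb1 at -0.23 ± 0.28, and all 25 intervals lay within 2-fold. Of 22 genes of cholesterol synthesis 21 were higher with a median of 0.22, 0 called by limma and 4 at an unadjusted p under 0.05. Dhcr7, the last enzyme of the pathway, was at 0.52 ± 0.13 (adjusted p = 0.0977). By slide the G2/M median was -0.55, -0.12 and 0.18 on slides 4, 1 and 3, and the cholesterol synthesis median was 0.08, -0.02 and 0.52. Neither list had the same sign on all 3 slides.

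**Figure D4:**
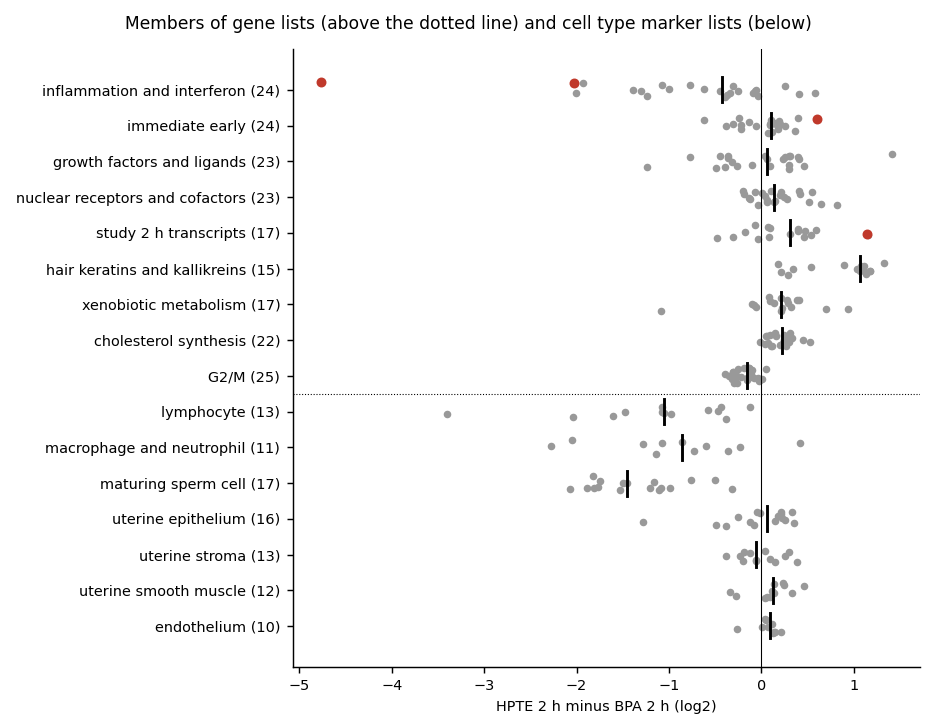
Difference between HPTE and BPA at 2 h (log2, horizontal axis) of the tested members of 9 gene lists and 7 cell marker lists, 1 point a gene. The vertical bar is the median of a list and red points are called. Inflammation genes, lymphocyte, macrophage and neutrophil, and maturing sperm cell markers lie mostly below 0, and hair keratins and kallikreins above it.

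Hair keratins and glandular kallikreins, secretory proteases whose probes may cross-react between near-identical genes, included transcripts far above vehicle under both compounds. All 15 tested were higher under HPTE than under BPA, 11 without overlap, with a median of 1.07, 0 called by limma and 2 at an unadjusted p under 0.05. Over all 31262 probes tested, 3278 did not overlap with HPTE the higher. By slide the median of the list was 0.47, 1.83 and 0.76 on slides 4, 1 and 3, so it was largest on slide 1, which held BPA replicate 3. Klk1 measured 34.04, 24.6 and 26.01 in vehicle, 3833, 5011 and 1923 under BPA and 6943, 7434 and 7200.1 under HPTE. Its difference of 1.11 ± 1.20 had an interval of -1.45 to 3.67. The fit shares 1 estimate of spread with the E2 arrays at 2 h, which measured 377, 53686 and 1386. The acinar pancreas markers, summed, were 3826180 and 228585 on replicates 2 and 3 of these E2 arrays and 565 to 1009 on the 6 arrays compared. The hair keratin Krt87 measured 18.8, 15.9 and 18.05 in vehicle, 3268, 3722 and 1586 under BPA and 3239.8, 2491 and 3492 under HPTE. Its groups overlapped, with a difference of 0.18 ± 0.28 (interval -0.41 to 0.77).

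Beyond the lists, the transcripts that moved most under both compounds were compared directly. These shared responders were the 6 raised and the 6 lowered most by the weaker of the 2 compounds against vehicle. They were chosen on the compared arrays and had to be called in the same direction for both. The choice itself therefore favours genes in which the compounds agree. Between the compounds 0 of the 12 were called, beside 0.445% of all probes tested, so the count is no result about these genes. Egr4, an immediate early transcription factor gene, rose from 24.9, 13.03 and 14.03 in vehicle to 1889.5, 1554 and 1955 under BPA and 1959, 2136 and 2088 under HPTE, a difference between the compounds of 0.20 ± 0.24 (interval -0.31 to 0.71). The proton channel gene Otop1 rose from 1.41, 1.36 and 2.35 to 68.1, 105 and 20.4 under BPA and 124, 119 and 126 under HPTE, with E2 at 2 h at 3.06, 4.12 and 3.45. Its difference of 1.22 ± 0.45 had an adjusted p of 0.193. The kallikrein genes Klk1b5 and Klk1b3 were at 1.10 ± 1.04 and 1.13 ± 1.15.

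Among the lowered, Ptgfr, the receptor of prostaglandin F2α, fell from 934, 961 and 958 in vehicle to 46.7, 48.6 and 289 under BPA and 57.6, 57.5 and 64.1 under HPTE. Pik3ip1, an inhibitor of PI3-kinase, fell from 1583, 1843 and 1716 to 113, 69.7 and 402 and 87.9, 72.4 and 69.7, and Tril, an accessory of Toll-like receptor signalling, from 405, 391 and 397 to 21.1, 17.4 and 85.2 and 32.6, 27.3 and 26.3. BPA replicate 3 stood nearer to vehicle than the other 5 arrays in each of these genes. The differences between the compounds were -0.54 ± 0.47 (interval -1.55 to 0.46) for Ptgfr, -0.95 ± 0.43 (-1.87 to -0.02) for Pik3ip1 and -0.14 ± 0.39 (-0.97 to 0.69) for Tril. The lactate receptor gene Hcar1, the tight junction gene Cldn1 and Lgi1 were at -0.08 ± 0.49, -0.21 ± 0.37 and -0.35 ± 0.43. The intervals of Ptgfr and Pik3ip1 reached past 2-fold on the lower side, and that of Tril lay within 2-fold.

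Transcripts that E2 changed at 2 h gave a wider view, in sets chosen from the E2 and vehicle arrays. E2 raised 793 probes by at least 1 on the log2 scale, and their median was 1.596 above vehicle under BPA and 1.77 under HPTE. Between the compounds their median difference was 0.19, and 8 (1.01%) were called, 7 higher and 1 lower under HPTE. E2 lowered 1411 probes by at least as much, and their median change from vehicle was -1.71 under BPA and -2.07 under HPTE. Their median difference was -0.44, and 21 (1.49%) were called, all lower under HPTE. Vehicle arrays varied widely in some transcripts, the sperm cell markers among them. Among probes whose vehicle arrays lay within 1 on the log2 scale, the raised set of 740 had a median of 0.19 and the lowered set of 669 a median of -0.21, with 18 called (2.69%).

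Array by array, the sets differed in which arrays stood apart. The median change from vehicle of the 740 raised probes was 1.63, 1.81 and 1.25 on BPA arrays 1, 2 and 3 and 1.76, 1.71 and 1.76 on the HPTE arrays. For the 669 lowered probes it was -1.70, -1.74 and -1.12 under BPA and -1.69, -1.79 and -1.78 under HPTE. In these sets BPA replicates 1 and 2 gave medians like those of the HPTE arrays, and BPA replicate 3 gave smaller ones in both directions. That pattern did not hold over all 1411 lowered probes, where the medians were -1.70, -1.84 and -1.58 under BPA and -1.96, -2.21 and -2.13 under HPTE. Every BPA array was nearer to vehicle. The 1411 also hold the probes whose vehicle arrays varied widely, which the 669 leave out, so their medians are no plain measure of response. The same limit holds for the 580 of them that E2 lowered by at least 2 on the log2 scale. Among these, BPA replicate 3 was the BPA array farthest from vehicle, at -1.84, -2.27 and -2.60 under BPA against -2.76, -3.60 and -3.41 under HPTE. For the 740 and 669 probes the HPTE array on slide 4 differed from its BPA neighbour by a median of -0.03 in the raised and 0.07 in the lowered set, on slide 3 by 0.14 and -0.05, and on slide 1, which held BPA replicate 3, by 0.46 and -0.63. The difference in these 2 sets was larger on that slide than on the other two, whereas over all 1411 lowered probes it was -0.17, -0.69 and -0.51 on slides 4, 1 and 3.

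At 24 h the 2 h differences were mostly smaller. The probes were chosen by their differences at 2 h, which favours smaller differences at 24 h, also in the test of the change. The comparison of sizes is therefore a description. Between the compounds 1411 probes (4.51%) were called at 24 h. The HPTE arrays of 24 h were all at position 4 on their slides, and BPA replicates 1, 2 and 3 of 24 h at 3, 3 and 2. BPA replicate 3 and HPTE replicate 2 of 24 h were scanned on a second day. These limits hold for every difference at 24 h, and every change from 2 h to 24 h, given below. Of the 78 probes higher under HPTE at 2 h all had a smaller difference at 24 h and 2 were called there in the same direction. Of the 61 lower, 60 were smaller and 2 were called in the same direction. Tested directly, the difference changed between 2 h and 24 h for 27 of all probes (0.0864%), and for 12 of the 78 and 3 of the 61. Edn2 measured 133, 151 and 146 under BPA and 148, 164 and 188 under HPTE at 24 h, overlapping ranges, with a difference of 0.21 ± 0.16. The change of its difference from 2 h was -1.24 ± 0.23 (adjusted p = 0.0544). For Cited2 the 24 h arrays gave 3001, 2558 and 2757 under BPA and 2766, 2105 and 2389.9 under HPTE, near the vehicle level, and for Rgs2 58972, 54032 and 55232 and 57081, 54445 and 60942.

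Saa3 and Acod1 were again lower on average under HPTE at 24 h, with wide spread and overlapping groups. Saa3 measured 1589, 1273 and 1420.0 under BPA and 1518, 207 and 285 under HPTE at 24 h, a difference of -1.67 ± 0.91 (adjusted p = 0.308), and Acod1 567, 476 and 373 and 753, 159 and 235. For both genes HPTE replicate 1 was far above the other two HPTE arrays. Vcam1 turned, from -0.74 ± 0.13 at 2 h to 0.58 ± 0.13 at 24 h (adjusted p = 0.0262), and the change itself was called (adjusted p = 0.024). Sting1 did the same, from -0.44 ± 0.07 to 0.31 ± 0.07 (0.0296, change 0.024). The lists of later growth differed more at 24 h than at 2 h, with a median of 0.83 and 17 of 25 called for G2/M and of 0.70 and 16 of 22 for cholesterol synthesis. The inflammation list had a median of -0.12 with 1 called.

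**Figure D5:**
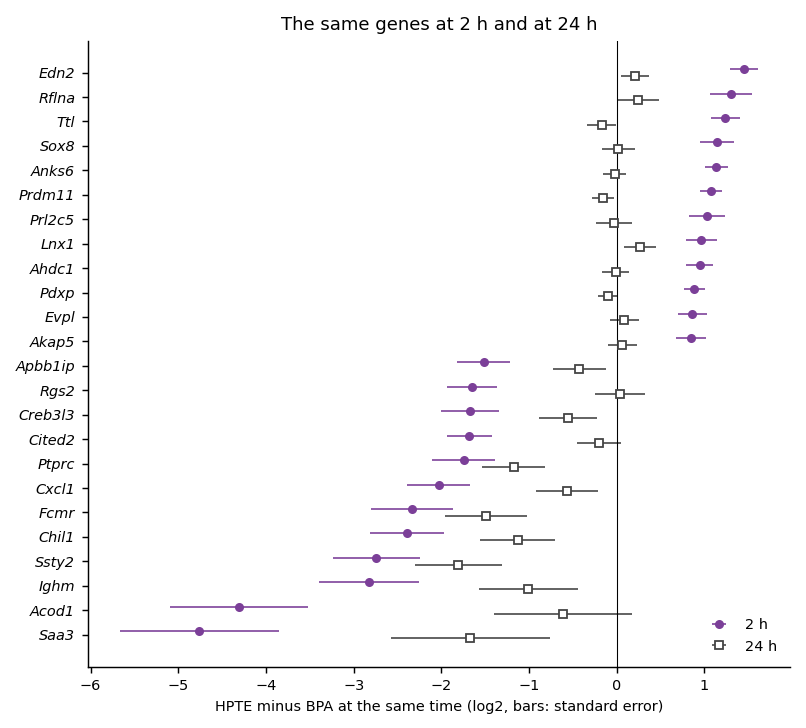
Difference between HPTE and BPA (log2, HPTE minus BPA, ± SE) of the 24 genes with the largest called differences, at 2 h and at 24 h. Every gene lies closer to 0 at 24 h than at 2 h, and Saa3, Acod1 and Ighm have the widest errors.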

How the data were processed

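Uterine RNA was hybridised to 1-colour Agilent whole mouse genome arrays. Per the labels, the authors scanned them with Agilent Feature Extraction 9.5, and the deposited values are background-subtracted intensities (gProcessedSignal) on a linear scale. The deposited table of the series held the same values. The flags used for outlier, saturated and well-above-background spots are other columns of the deposited scanner files. Control and outlier spots were left out, spots of a probe averaged, and the 75th percentile of an array subtracted from its log2 values. Probes well above background on every BPA or every HPTE array at 2 h were tested with limma 3.58.1 in R 4.3.3, in a model of 7 group means over 20 arrays (lmFit, contrasts.fit, eBayes, two-sided, Benjamini-Hochberg). The pooled model was chosen because 3 against 3 arrays leave little information on the spread. The code was tested on simulated data. Symbols were updated through RefSeq (GRCm38.p6) for 22951 probes by accession, 6659 by symbol and 3109 by synonym, and 8455 kept the name of the file. Coordinates of probes are those of the array design, on mm7, and what the annotation holds at each (exon or UTR) was not analysed here.

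Each array is a separate uterus, so p-values measure the spread between animals. The text names the 12 largest called differences each way without overlap (1 probe a symbol, no clone or accession names), called members of the lists, the study's PCR transcripts and 12 shared responders, and says where another gene was named after its values were seen. In lists, the brightest probe stands for a gene. Members and lists were chosen with earlier results of these data known, and they are not independent evidence. The 23 alternatives concerned scaling, background, arrays in the fit, slide, position (chosen after seeing the data), replicate number, filters and variance model.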

Additional observations from a re-analysis of the deposited data

Results flagged for a closer look

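The difference between HPTE and BPA changed between 2 h and 24 h in 4 genes whose calls at 2 h held in every fit without 1 array, by the test of the change itself (limma, Benjamini-Hochberg adjustment over all probes). The genes were chosen by their differences at 2 h, which are part of that test, and this choice favours a smaller difference at 24 h. The difference at 24 h less that at 2 h was -1.4078 on the log2 scale for Ttl (adjusted p = 0.0338), -1.1629 for Anks6 (0.0338), -1.2264 for Prdm11 (0.0240) and -0.9867 for Pdxp (0.0338). At 24 h the groups overlapped for each of them. Ttl measured 25.8, 25.8 and 22.2 under BPA and 20.7, 22.2 and 22.7 under HPTE, Anks6 266, 304 and 273 and 263, 309.9 and 257, Prdm11 307, 363 and 316 and 277, 313 and 294, and Pdxp 175, 213 and 165 and 172, 162 and 179.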

How the results depend on the processing

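The 139 calls, and the 24 named genes with the largest called differences, depended on the setting. The counts, with the number of the 24 that stayed called in parentheses, were 92 (17) with quantile normalization, 15 (8) without scaling, 0 (0) with spike-in scaling, 0 (0) on the 6 compared arrays alone, 1 (0) on the 9 treated arrays of 2 h, 28 (6) on the 12 BPA and HPTE arrays, 96 (15) with the slide as a block, 0 (0) with it on the 6 arrays alone, 63 (13) without the filter on dim probes, 664 (24) with array weights, 225 (23) with a trended and robust eBayes, 1 (0) with the position block and 49 (19) with a 2-fold minimum. Where limma called 0, unadjusted p under 0.05 held for 1727, 3090 and 3630 probes in that order. Without one array at a time the counts ranged from 14 to 1198 (5 to 24). Normexp with quantile normalization gave 133 (20) and a filter on all 6 arrays 135 (21). The cause of these changes was not tested. Array weights were 0.33 for BPA replicate 3 and 3.11 for HPTE replicate 1. No difference of the 24 genes changed sign under any of these settings. Their groups do not overlap, so leaving out 1 array could not change a sign. Several other settings left the difference itself as it was, so the steady sign is no support. Of 525 values of these genes over the settings 244 kept their side of the threshold and 281, all called in the fit reported, lost it.

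Replicate numbers did not pair the samples, since deviations of same-numbered BPA and HPTE arrays correlated at 0.04, -0.20 and -0.19. With the replicate block the count was 112 (22) on all 20 arrays and 0 (0) on the 6 alone, with 2588 at an unadjusted p under 0.05. Dim probes limit Prl2c5, Chil1 and Ssty2, given as bounds.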

Other observations

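The largest fitted differences of all were not called. The genes here are taken from the 10 largest uncalled differences on each side. On the lower side all but Slc13a3, a dicarboxylate transporter gene at 5718, 359.9 and 34.4 under BPA (-4.58 ± 1.44), were transcripts of immunoglobulins, plasma cells or phagocytes. The immunoglobulin genes Ighg1 and Igh-1a measured 3888, 2645 and 109 and 11597, 19912 and 617 under BPA, against 11.4, 12.05 and 10.7 and 25.2, 33.3 and 35.9 under HPTE, with differences of -6.51 ± 2.28 and -7.39 ± 2.73 (adjusted p = 0.171 and 0.193, limma). Mzb1, a chaperone of plasma cells, gave 4283, 8307 and 454 and 109, 98.1 and 336 (-4.04 ± 1.25). Marco, a scavenger receptor of macrophages, measured 7299, 7300.3 and 593 under BPA and 110.0, 40.4 and 168 under HPTE (-5.12 ± 1.39, adjusted p = 0.106), and the formyl peptide receptor genes Fpr1 and Fpr2 gave -4.34 ± 1.22 and -4.03 ± 1.10. In each gene BPA replicates 1 and 2 were far above BPA replicate 3, which still exceeded all HPTE arrays. At 24 h single uteri of either compound carried such levels, with Ighg1 at 28.4, 1730.1 and 94.1 under BPA and 5021, 7.06 and 6.82 under HPTE and Marco at 715, 3639 and 741 and 4745, 62.2 and 562. Of the BPA and HPTE groups, the wide range of Ighg1 and Marco was within BPA at 2 h and within both at 24 h. Uteri given neither compound also varied. Vehicle gave 19.9, 9.26 and 277 for Ighg1 and 2.11, 3.31 and 1651 for Igh-1a. In both genes vehicle replicate 3 exceeded BPA replicate 3. Marco measured 123, 209 and 171 in vehicle and 1090, 69.9 and 109 under E2 at 2 h.

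On the other side Nr0b2, the orphan receptor SHP that represses other nuclear receptors, measured 27.1, 47.8 and 12.5 under BPA, 75.97, 138 and 68.6 under HPTE and 10.4, 11.4 and 13.4 in vehicle (1.83 ± 0.40, adjusted p = 0.0585). Rai14, an actin-binding protein, measured 1064, 1238 and 375 under BPA, 2379, 2536 and 1939.6 under HPTE and 300.0, 223 and 219 in vehicle (1.52 ± 0.32, adjusted p = 0.0527). The 4 other probes of Rai14 were not called, at -0.06 to 0.996. Nr0b2 and this probe of Rai14 stayed just short of the threshold with no overlap between the compounds, and Nr0b2 was near vehicle at 24 h, at 13.9, 10.98 and 10.1 under BPA and 14.6, 10.4 and 11.9 under HPTE. At 2 h BPA replicate 3 was the lowest BPA array in both genes.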
